A study of Mus musculus with 28 samples.

Results

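The cytosolic ribosomal protein genes were taken from the gene table by symbol, as Rpl or Rps followed by a number, or Rpsa, Rplp0, Rplp1 or Rplp2, leaving out the S6 kinase genes and names that mark a pseudogene. Of 92 such names, 87 reached a normalized value of 10 in at least 3 of the 24 libraries, out of 24911 genes that did so and 49341 genes listed. The 87 members comprised 77 core genes, which encode the structural proteins of the ribosome (31 of the small subunit, 43 of the large subunit and 3 of the stalk), and 10 others. All 77 core genes passed. The 10 others were the paralogs and copies Rpl3l, Rpl7l1, Rpl22l1, Rpl36al, Rpl37rt, Rps3a2, Rps4l, Rps27l and Rps27rt, together with Rps19bp1, a binding protein of Rps19 that matches the name pattern and is not a ribosomal protein.

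The libraries came from 3 male Amigo2-EGFP mice (492, 496 and 502) aged 6 to 8 weeks on a C57BL/6J background, which carry a green fluorescent reporter in every group used here and came from separate litters. From each mouse, laser capture of hippocampal sections gave 8 libraries. They held the cell body layer (stratum pyramidale, or the granule cell layer) and the dendritic layer (stratum radiatum, or the molecular layer) of 4 subregions: the dentate gyrus (DG) and the fields CA1, CA2 and CA3. No treatment was given. Each of the 8 groups therefore held 3 libraries, 1 per mouse. A captured layer is mixed tissue, and in bulk libraries fewer cells of a type and less RNA per cell cannot be told apart. Cell body libraries were made from 5 ng of RNA and dendritic libraries from 1 ng, so input and compartment cannot be told apart. Values are the deposited log2 normalized values of each gene, and a difference is dendritic minus cell body unless stated otherwise.

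The cytosolic ribosome is built from a small subunit, which reads the mRNA, and a large subunit, which joins amino acids and carries a flexible stalk that recruits the translation factors. Its proteins are needed in matched amounts, and their mRNAs share a start that is a C followed by an uninterrupted run of pyrimidines (the 5′-terminal oligopyrimidine tract), through which their translation follows growth signals. Ribosomal protein mRNAs are also known in the dendrites and axons of neurons, away from the nucleolus in which new ribosomal subunits are assembled.

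The region around the annotated start is shown for members that have a C-led pyrimidine run there, which not every core gene does. Of these, 3 ranked higher than the family in dendritic layers (Rpl31, Rps21 and Rps24) and 3 ranked lower (Rps6, Rpl15 and Rplp2). Each run shown opens before the annotated start site, so the windows do not show an mRNA that begins with the run. Each window holds the 10 bases before the annotated start site and the first 20 bases of the gene (RefSeq, GRCm38.p6), written 5′ to 3′ on the gene's strand, and capitals mark the longest pyrimidine run that opens with C.
Rpl31, chr1:39367841-39367870, plus strand: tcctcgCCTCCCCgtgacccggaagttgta
Rps21, chr2:180257369-180257398, plus strand: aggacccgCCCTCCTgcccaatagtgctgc
Rps24, chr14:24490668-24490697, plus strand: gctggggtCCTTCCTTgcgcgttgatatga
Rps6, chr4:86857348-86857377, minus strand: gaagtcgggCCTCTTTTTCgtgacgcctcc
Rpl15, chr14:18270967-18270996, minus strand: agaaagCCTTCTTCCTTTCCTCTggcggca
Rplp2, chr7:141447641-141447670, plus strand: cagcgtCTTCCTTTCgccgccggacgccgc
A C-led run of at least 6 pyrimidines, searched on the gene's strand from 10 bases before to 30 bases after the start, was found in 36 of the 57 core genes of the RefSeq promoter table, or 63.2%. It was found in 4 of 10 other members (40.0%) and in 27.5% of all 27025 genes of that table. Among the core genes with a window, the run was found in 9 of 14 that ranked higher in dendritic layers, in 12 of 17 that ranked lower and in 15 of 26 that did not pass the test. The searched letters were therefore about as frequent in the higher as in the lower members. A match is a description of these letters and not a measured tract.

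Some members have a paralog that differs enough for reads to be told apart, and others have a copy that does not. The coding sequences below (GENCODE M21, GRCm38) are shown because Rps27 has a paralog of each kind, of which Rps27l left the family in dendritic layers. Rps27 and Rps27l encode forms of the same small-subunit protein. The partner comes first, and capitals in the paralog mark the bases that differ from it.
Rps27, gene at chr3:90212522-90213651, minus strand: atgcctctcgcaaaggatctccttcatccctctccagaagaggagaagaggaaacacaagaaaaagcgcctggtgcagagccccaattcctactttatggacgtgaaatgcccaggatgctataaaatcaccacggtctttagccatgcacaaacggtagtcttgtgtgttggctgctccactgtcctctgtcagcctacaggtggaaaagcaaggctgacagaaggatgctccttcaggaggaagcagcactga
Rps27l, gene at chr9:66946086-66949516, plus strand: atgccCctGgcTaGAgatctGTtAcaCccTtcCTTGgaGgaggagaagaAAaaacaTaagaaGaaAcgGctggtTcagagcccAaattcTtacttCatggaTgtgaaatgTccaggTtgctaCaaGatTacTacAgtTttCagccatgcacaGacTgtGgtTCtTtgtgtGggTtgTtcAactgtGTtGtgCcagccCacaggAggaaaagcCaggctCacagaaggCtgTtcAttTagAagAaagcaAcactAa
Rps27l differed from Rps27 at 61 of 255 bases (76.08% identity). The coding sequence of Rps27rt, by contrast, was identical to that of Rps27 (100% identity, 0 bases differing), so the reads of those 2 genes cannot be separated within it.

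As a check of the labels, the mean level of the fixed markers of CA1, CA2, CA3 and DG was highest in the 3 libraries of the subregion they mark, within each compartment. Markers of other cell types moved with compartment. All 14 astrocyte markers were higher in dendritic layers, with a median difference of 3.34, and so were all 13 oligodendrocyte, 12 microglial and 11 endothelial markers (median differences 2.98, 3.61 and 3.44) and 12 of 14 interneuron markers, of which 1 was lower. No marker of these lists was at 0 in all cell body libraries. The mean log2 level of the astrocyte list ranged from 9.81 to 10.89 in cell body libraries and from 13.23 to 14.07 in dendritic libraries, and that of the microglial list from 7.13 to 7.93 and from 10.54 to 11.76. The part of these cell types in the results on ribosomal protein genes was not tested. The unlogged normalized values summed to between 29222878 and 55477249 in cell body libraries and between 36933392 and 98715227 in dendritic libraries.

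Level of the family by library. As a group, the ribosomal protein genes were higher in dendritic than in cell body layers on the deposited scale, with the largest median difference in CA1, while scaling to equal library totals turned the direction in DG and put CA2 (0.39) level with CA1 (0.38). The median log2 level of the 77 core genes ran from 11.21 to 11.72 over the 12 cell body libraries (median 11.36) and from 11.55 to 13.24 over the 12 dendritic libraries (median 12.01). In CA1 dendrites the 3 mice 492, 496 and 502 gave 13.24, 12.67 and 12.50. The same mice gave 12.29, 11.73 and 11.75 in CA2 dendrites, 11.80, 12.09 and 11.55 in CA3 dendrites, and 11.93, 12.34 and 11.71 in the DG molecular layer. All 3 CA1 dendritic libraries thus lay above the 9 others, while the ranges of the other dendritic groups overlapped each other, and the lowest libraries of CA3 and DG dendrites lay within the cell body range. Among cell bodies the group means lay close together, at 11.29 ± 0.07 for CA1, 11.43 ± 0.25 for CA2, 11.38 ± 0.15 for CA3 and 11.49 ± 0.16 for DG (SD, n = 3).

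**Figure D1:**
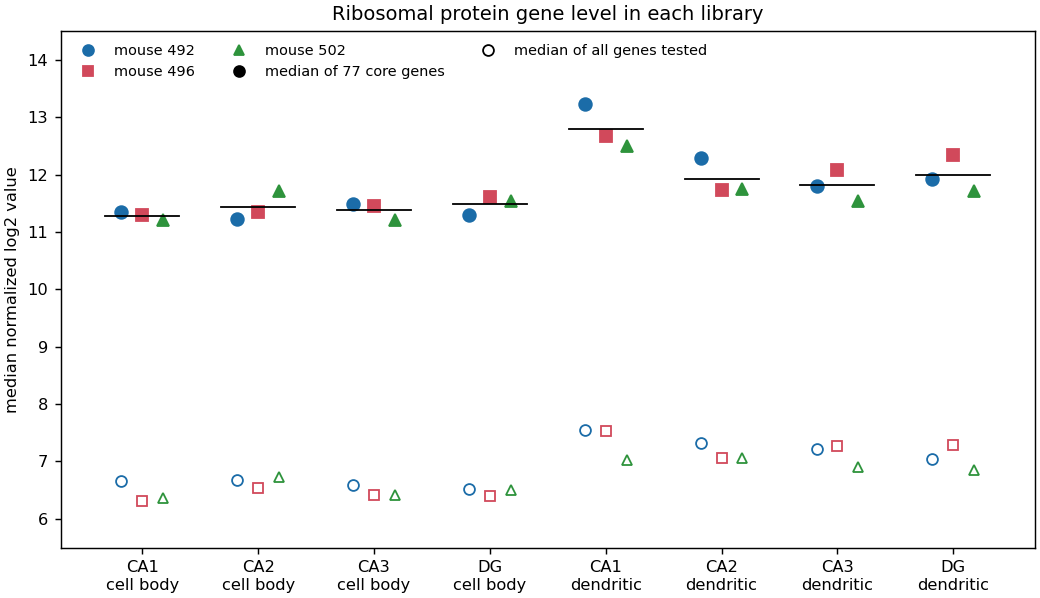
Median log2 level of the 77 core ribosomal protein genes (filled points) and of all tested genes (open points) in each of the 24 libraries, by group, with a line at the mean of each group's filled points. The filled points of the 3 CA1 dendritic libraries, at 12.50 to 13.24, are the highest of all, and the open points are also higher in dendritic than in cell body libraries.

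The median of all tested genes moved in the same direction, from between 6.31 and 6.74 in cell body libraries to between 6.86 and 7.56 in dendritic libraries. The family's median lay 4.55 to 5.22 above that of all genes in cell body libraries (median 4.86) and 4.58 to 5.68 above it in dendritic libraries (median 4.86). Measured against all genes in this way, the 2 compartments had the same median distance, and CA1 dendrites had the largest group mean, 5.43 ± 0.28 (SD, n = 3). Taken gene by gene, in contrast, the median difference between compartments was -0.20 for all genes and 0.71 for the members. As a share of the summed values without mitochondrially encoded genes, the 87 members made up 0.492% to 1.02% in cell body libraries (median 0.602%) and 0.798% to 1.66% in dendritic libraries (median 1.08%). With mitochondrially encoded genes included, the share was 0.455% to 0.959% (median 0.555%) and 0.517% to 0.949% (median 0.674%), with wide overlap.

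On the deposited scale, 66 members were higher and 4 lower in dendritic layers over the mean of the 4 subregions (limma, adjusted p below 0.05), against 19.8% higher and 25.4% lower among all genes tested. Within CA1, 72 members were higher and 1 lower, against 15.2% and 9.56% of all genes. CA2 had 25 higher and 3 lower (10.8% and 17.2% of all genes; 3 called in all once the 4 dendritic libraries with a repeat were left out), CA3 had 13 and 2 (10.6% and 11.4%), and DG had 18 and 1 (13% and 9.31%). The median member difference was 1.35 for CA1, 0.50 for CA2, 0.41 for CA3 and 0.43 for DG, while the median of all genes was -0.11, -0.17, -0.18 and -0.14. Among the members that rose in all 3 mice, Rps12 had the largest difference, 3.11 ± 0.97 (SE, adjusted p = 0.0111), and it is counted among the 66. It passed the filter in only 6 libraries, mostly dendritic, so the filter favoured a rise and this p-value is no evidence of one. Its dendritic values in mouse 492 lay near 0, and its median share of own reads was 0%, so the difference is uncertain. Next came Rps29 at 1.84, Rpsa at 1.59, Rpl31 at 1.42, Rps20 at 1.40, Rps21 at 1.37, Rps28 at 1.36 and Rplp0 at 1.31. The 4 members that fell over the mean of the subregions all lay outside the core: Rps4l by -1.30 ± 0.18 (SE, adjusted p = 1.63e-06), Rps19bp1 by -1.01 ± 0.22 (adjusted p = 0.000558), Rpl22l1 by -0.70 ± 0.20 (adjusted p = 0.00643) and Rpl7l1 by -0.43 ± 0.17 (adjusted p = 0.0347).

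The size and, in DG, the direction of the family's shift depended on how libraries were scaled to each other. After scaling to equal totals of the unlogged values, the median of all genes over the mean of the subregions was -0.63 and the median member difference was 0.20, with 33 members higher and 17 lower. In DG that scaling gave a median member difference of -0.22, with 6 members higher and 21 lower. For this reason, the question of which members leave the family was addressed after subtracting the family's own median from every gene in each library. For genes well above the floor of 0, no constant scaling of a library can change the result. For a gene at or near 0, such as Rps12 in most libraries, the centred value mostly follows the family median. A value on this family-centred scale is the log2 distance of a gene from the median of the 77 core genes in the same library, and a change in it between groups is called a departure.

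Departures between compartments. Of the 87 members, 47 departed from the family between dendritic and cell body layers over the mean of the 4 subregions, 21 of them higher and 26 lower. Among all genes tested, 59.7% passed the same test, 11.4% higher and 48.2% lower, since most genes did not rise with the family (median of all genes -0.94). Of the 77 core genes, 21 were higher (Rps12 among them), 20 lower and 36 did not pass. The centre is the median of these same genes, so a rough balance of higher and lower core genes follows from the centring. The medians of the subunits are tied to it in the same way. The small subunit had 10 higher, 4 lower and 17 not passed of 31, with a median of -0.04. The large subunit had 9 higher, 15 lower and 19 not passed of 43, with a median of -0.03. None of the 10 other members was higher, and 6 were lower.

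**Figure D2:**
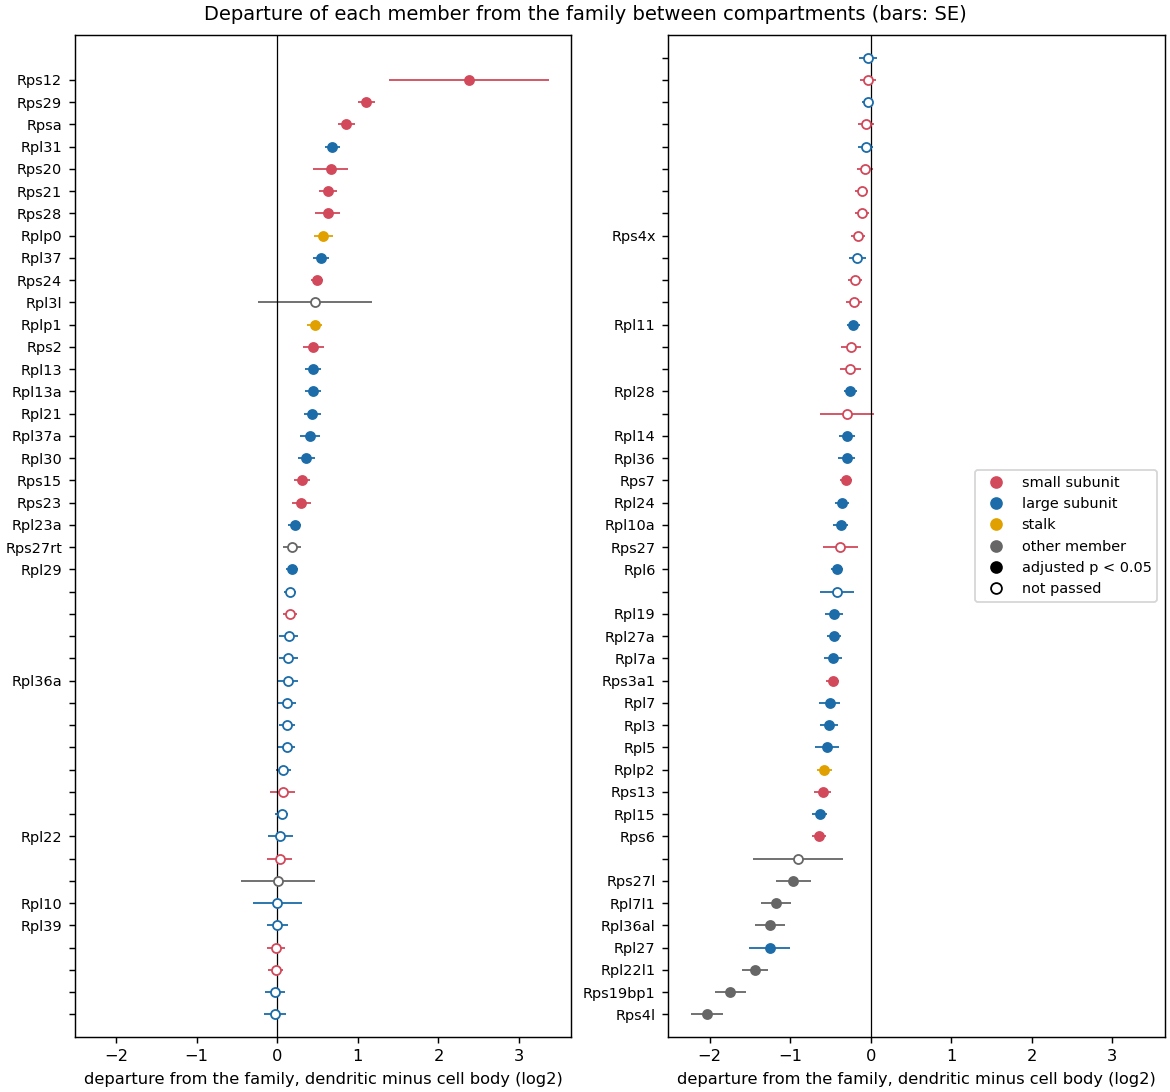
Departure of each of the 87 members between dendritic and cell body layers (log2, mean of 4 subregions, with its SE), ranked and coloured by class, with filled points for an adjusted p below 0.05 and names for these and some of the others. Rps29 at 1.10 and Rpsa at 0.85 lead the precisely measured members at the upper end, Rps12 at 2.37 has an SE of 0.99, and the lower end is held by Rps4l at -2.03, Rps19bp1 at -1.74 and Rpl22l1 at -1.44.

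Rps29, a small zinc-binding protein of the small subunit, had the largest departure among the higher members other than Rps12, which is described with its copies below. Its deposited level ran from 10.13 to 10.86 over cell body libraries (median 10.53) and from 11.49 to 13.51 over dendritic libraries (median 12.31). On the family-centred scale it lay between -1.19 and -0.58 in cell bodies (median -0.97) and between -0.23 and 0.48 in dendrites (median 0.25). No dendritic library overlapped a cell body library on either scale. On the deposited scale 9 members lay wholly above (5.26% of all genes) and 0 wholly below (1.37%). The departure was 1.10 ± 0.10 (SE, adjusted p = 2.72e-09), with 1.13, 1.13 and 1.04 in the 3 mice.

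Rpsa, a small-subunit protein also known as the laminin receptor, behaved likewise. It lay from -0.46 to 0.41 around the family median in cell bodies (median 0.26) and from 0.44 to 1.46 in dendrites (median 1.07), again without overlap. Its departure was 0.85 ± 0.11 (adjusted p = 2.01e-07), with 0.64, 0.81 and 1.11 in the 3 mice. Rps29 and Rpsa were the only members whose dendritic libraries all lay above all cell body libraries on the family-centred scale, which 2.08% of all genes did.

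Among the other small-subunit members, Rps21 departed by 0.63 ± 0.11 (adjusted p = 4.77e-05) and Rps24, which like Rps28 and Rps29 is mutated in some families with Diamond-Blackfan anaemia, by 0.49 ± 0.08 (adjusted p = 9.69e-06). Rps24 lay between 0.44 and 0.86 in cell bodies (median 0.67) and between 0.62 and 1.34 in dendrites (median 1.21), so the ranges overlapped and the cell body median lay inside the dendritic range. Rps28 departed by 0.63 ± 0.16 (adjusted p = 0.00152), and without mouse 502 by 0.47 (adjusted p = 0.0709). Rps20 departed by 0.66 ± 0.22 (adjusted p = 0.0117), with 0.49, 1.09 and 0.41 in the 3 mice. Its centred values ran from -2.23 to -0.99 in cell bodies (median -1.72) and from -2.34 to 0.86 in dendrites (median -1.04), so the dendritic range enclosed the cell body range. Without mouse 496 the Rps20 departure was 0.45 (adjusted p = 0.15), and with the CA1 dendrites of mice 492 and 496 left out it was 0.28 (adjusted p = 0.172).

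On the large subunit, Rpl31, which sits near the exit of the nascent peptide, departed most among the higher members. It ran from -0.26 to 0.48 in cell bodies (median -0.04) and from 0.40 to 1.10 in dendrites (median 0.69), a departure of 0.68 ± 0.09 (adjusted p = 7.16e-07). The ranges touched only between 0.40 and 0.48. Rpl37 departed by 0.55 ± 0.10 (adjusted p = 4.18e-05).

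Of the 3 stalk genes, 2 departed higher and 1 lower. Rplp0, which anchors the stalk to the large subunit, departed by 0.57 ± 0.12 (adjusted p = 0.00022), and Rplp1, one of the acidic proteins it carries, by 0.46 ± 0.09 (adjusted p = 0.000192). Rplp2, the other acidic protein, which pairs with Rplp1 in the ribosome, departed in the opposite direction, by -0.58 ± 0.09 (adjusted p = 1.11e-05). Rplp1 ran from 0.83 to 1.38 in cell bodies (median 0.96) and from 0.97 to 1.74 in dendrites (median 1.50), while Rplp2 ran from -0.39 to 0.21 (median -0.02) and from -1.33 to -0.27 (median -0.46). For each of the 3 stalk genes the ranges overlapped between compartments. On the deposited scale the Rplp2 difference was 0.16 ± 0.14 and did not pass the test (adjusted p = 0.381).

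Rps6, the small-subunit protein phosphorylated by the S6 kinases and widely used to mark active neurons, had the smallest adjusted p among the core genes that departed lower. Its centred values ran from 0.77 to 1.04 in cell bodies (median 0.94) and from 0.00 to 0.68 in dendrites (median 0.31), without overlap. The departure was -0.64 ± 0.09 (adjusted p = 1.16e-06). Its deposited level was 12.27 at the median of cell body libraries and 12.34 at that of dendritic libraries, and the deposited difference of 0.09 ± 0.11 did not pass the test (adjusted p = 0.51). Rps13, also of the small subunit, departed by -0.60 ± 0.10 (adjusted p = 1.68e-05), from between 0.16 and 0.69 in cell bodies to between -0.83 and 0.05 in dendrites, also without overlap.

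Among the lower large-subunit members, Rpl15 ran from 0.72 to 1.19 in cell bodies (median 0.95) and from -0.16 to 0.70 in dendrites (median 0.30), a departure of -0.63 ± 0.10 (adjusted p = 4.18e-06). Rpl3, part of the peptidyl transferase centre, departed by -0.51 ± 0.11 (adjusted p = 0.000384), Rpl7 by -0.51 ± 0.13 (adjusted p = 0.0017), and Rpl5, which binds the 5S rRNA with Rpl11, by -0.54 ± 0.15 (adjusted p = 0.00323). Together with Rps6, Rps13, Rpl6, Rpl7l1 and Rps19bp1, Rpl15 was among 6 members whose dendritic libraries all lay below all cell body libraries, which 9.1% of all genes did.

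Paralogs and partners. Of the 7 paralogs tested, 5 departed lower and 2 did not pass, against 48.2% of all genes lower. On the deposited scale 3 of the 7 were lower, 1 was higher and 3 did not pass (25.4% and 19.8% of all genes lower and higher). Rpl36al and Rps27l were not among the lower ones there. Of the partners of the 5 that departed lower, Rpl22, Rpl36a, Rps4x and Rps27 did not pass the test, and Rpl7 departed lower. Rpl22l1 lay between -1.08 and 0.55 in cell bodies (median -0.63) and between -2.81 and -0.81 in dendrites (median -2.03), a departure of -1.44 ± 0.16 (adjusted p = 3.59e-08). Its partner Rpl22 departed by 0.04 ± 0.15 (adjusted p = 0.845). The log2 ratio of Rpl22l1 to Rpl22 therefore changed by -1.19, -1.51 and -1.74 in the 3 mice. Rpl36al ran from -1.05 to 0.42 in cell bodies (median -0.67) and from -3.32 to -0.80 in dendrites (median -1.89), a departure of -1.25 ± 0.19 (adjusted p = 3.3e-06), against 0.13 for Rpl36a (adjusted p = 0.38). The ratio of Rpl36al to Rpl36a changed by -1.05, -1.67 and -1.44.

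Rps27l, a p53-responsive paralog of Rps27, departed by -0.96 ± 0.21 (adjusted p = 0.000463), with CA1 the most extreme. Relative to the mean of the cell body libraries, it lay at -1.53, -1.23 and -2.35 in CA1 dendrites of mice 492, 496 and 502. In the DG molecular layer it lay at -0.43, -0.27 and -0.27. The ratio of Rps27l to Rps27 changed by -0.81, -0.26 and -0.69 in the 3 mice. Rps27 kept a median of 15.8% of the reads shared with its copies, and with their reads added its departure was 0.12 (adjusted p = 0.235), so the change in this ratio depends on how reads were divided. Rps27 itself departed by -0.38 ± 0.21 and its identical copy Rps27rt by 0.19 ± 0.11, neither past the test (adjusted p = 0.134 and 0.166). Rpl7l1 departed by -1.17 ± 0.19 (adjusted p = 9.91e-06), more than its partner Rpl7. Its centred values ran from -2.30 to -1.56 in cell bodies and from -5.21 to -2.49 in dendrites, and its ratio to Rpl7 changed by -0.95, -0.38 and -0.66.

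Rps4l, annotated as a transcribed processed pseudogene related to Rps4x, had the lowest departure of all members at -2.03 ± 0.20 (adjusted p = 4.28e-09), against -0.16 for Rps4x (adjusted p = 0.115). It ran from -3.70 to -1.29 in cell bodies and from -5.51 to -3.39 in dendrites. Rps19bp1, whose product is also known as an activator of the deacetylase Sirt1, departed by -1.74 ± 0.19 (adjusted p = 4.06e-08). The partners Rpl10 and Rpl39 did not pass, and their paralogs Rpl10l and Rpl39l, which are known from the testis, stayed below the filter with highest levels of 5.56 and 0.75. Rpl3l, the form of Rpl3 known from striated muscle, passed the filter in 7 libraries and departed by 0.46 ± 0.71 (adjusted p = 0.589). The copies Rps3a2 and Rpl37rt, at -0.90 ± 0.55 and 0.01 ± 0.46, did not pass either (adjusted p = 0.167 and 0.99).

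**Figure D3:**
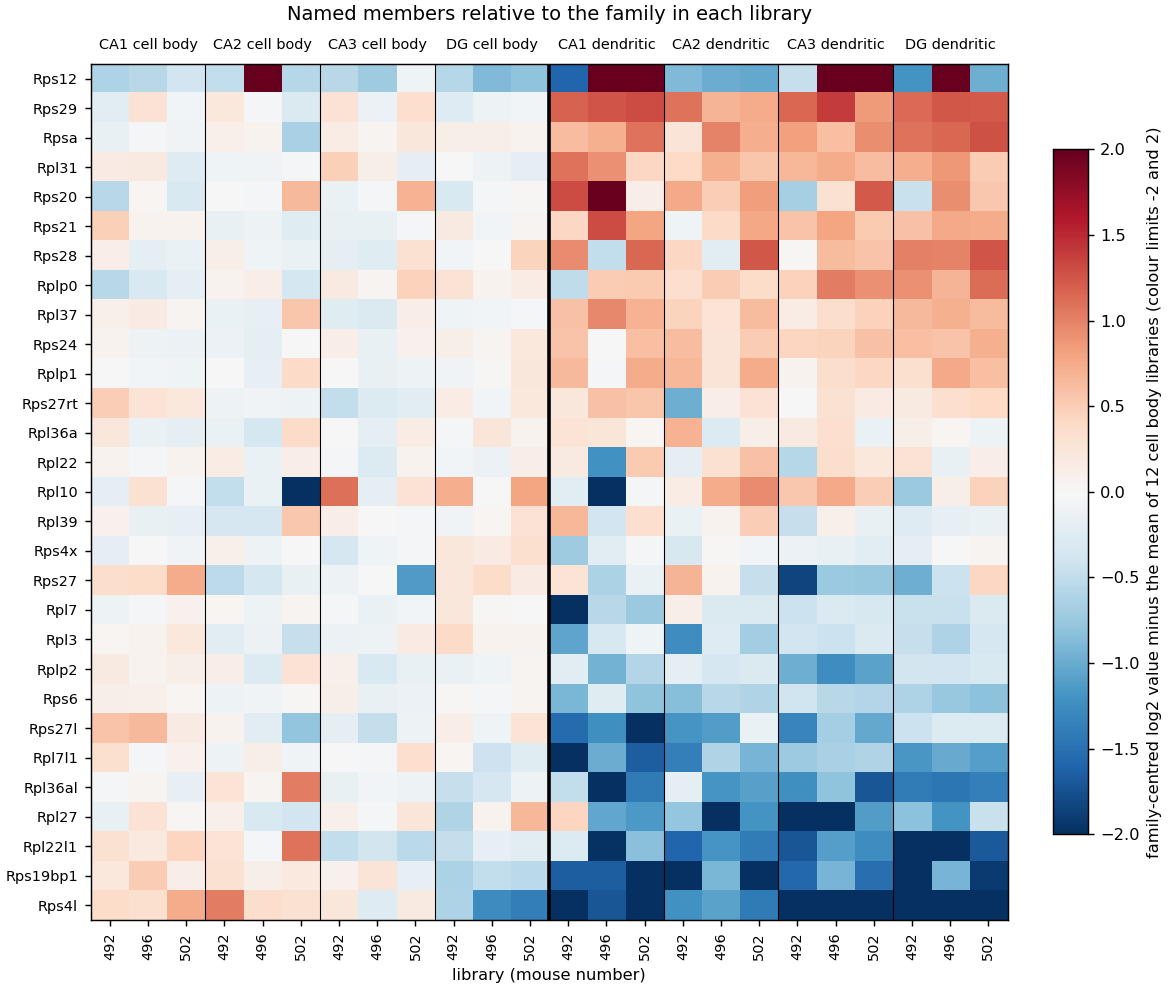
Family-centred log2 value of the named members in each library, minus the mean of the 12 cell body libraries, with colour limits of -2 and 2. Rps29, Rpsa and Rpl31 are higher and Rps4l, Rps19bp1, Rpl22l1 and Rpl36al lower in dendritic libraries, in all 4 subregions.

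The members nearest the filter were Rps3a2, which passed in 3 libraries, Rps12 in 6 and Rpl3l in 7, and the other 84 passed in all 24. Of the 5 names that failed, Rps12l1 passed in 2 libraries, Rps3a3 and Rpl10l in 1 each, and Rpl6l and Rpl39l in none.

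Departures within subregions. The leading members departed in the same direction in all 4 subregions. Within CA1, 10 members were higher and 19 lower than the family in dendrites, against 5.72% and 45.3% of all genes. CA2 had 5 higher and 8 lower (7.43% and 26.8% of all genes), CA3 had 5 and 7 (7.81% and 20.8%), and DG had 11 and 13 (9% and 19.5%). In the order CA1, CA2, CA3 and DG, Rps29 departed by 1.24, 0.87, 0.96 and 1.34, Rpsa by 0.88, 0.82, 0.65 and 1.07, and Rpl31 by 0.78, 0.61, 0.53 and 0.80. Rpl22l1 departed by -1.34, -1.84, -0.89 and -1.70, Rpl36al by -1.50, -1.27, -1.14 and -1.11, Rps19bp1 by -2.14, -2.24, -1.40 and -1.18, and Rps4l by -2.83, -1.80, -2.29 and -1.21. These 7 members passed the test in each subregion, whereas Rps6 passed in CA1, CA2 and DG and was at -0.46 in CA3 (adjusted p = 0.057).

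Over all 8 groups, 35 of 87 members differed on the family-centred scale (moderated F test over 7 differences, adjusted p below 0.05), against 56.7% of all genes. They comprised 28 core genes and 7 others. The smallest adjusted p-values belonged to Rps4l (1.99e-07), Rps29 (7.39e-07), Rpl22l1 (2.28e-06), Rps19bp1 (6.8e-06), Rpsa (2.68e-05), Rplp2 (8.7e-05), Rpl31 (0.000138) and Rps6 (0.000247). Whether a departure between compartments differed between subregions was tested with the 3 interaction terms. On the family-centred scale limma called 0 members, against 12.7% of all genes, and 4 members had an unadjusted p below 0.05. On the deposited scale the same test called 22 members, against 11.7% of all genes, and all 22 were core genes. Among them, Rpl13a (adjusted p = 0.00137), Rpl27a (0.00183), Rpsa (0.00216), Rpl4 (0.00261), Rps2 (0.00374), Rps16 (0.00597) and Rpl3 (0.00692) had the smallest p-values.

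Departures of single subregions. Each subregion was also compared with the mean of the other 3 within its compartment. In CA1 dendrites limma called 6 members lower against the family and 0 higher, against 19.5% and 0.851% of all genes, and 9 and 6 members had an unadjusted p below 0.05. For Rpl10, which joins the large subunit late in its assembly, the 3 CA1 dendritic libraries of mice 492, 496 and 502 lay at -1.93, -4.94 and -1.73 from the family median, a difference of -1.54 ± 0.49 (adjusted p = 0.0311) that was -0.19, -3.77 and -0.65 in the 3 mice. Rpl7 lay at -1.64, -0.09 and -0.27, a difference of -0.84 ± 0.21 (adjusted p = 0.00885). For Rpl7l1 the values were -5.21, -2.88 and -3.54, a difference of -1.08 ± 0.31 (adjusted p = 0.0172). In each of these 3 genes a single library, of mouse 496 for Rpl10 and of mouse 492 for Rpl7 and Rpl7l1, stood below the others. Rps27l differed by -0.99 ± 0.35 (adjusted p = 0.046), Rps3 by -0.65 ± 0.21 (adjusted p = 0.0347) and Rpl26 by -0.52 ± 0.15 (adjusted p = 0.0224). The Rps3 difference was -1.17, -0.87 and 0.09 in the 3 mice, so mouse 502 went the other way. With the libraries of CA1 dendrites from mice 492 and 496 left out, 0 members were called.

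In CA3 dendrites Rplp2 was the only member called, and it was lower, as were 0.51% of all genes. It lay at -1.06, -1.33 and -1.15 in CA3 dendrites, below the group means of -0.67 in CA1, -0.35 in CA2 and -0.44 in DG, a difference of -0.69 ± 0.15 (adjusted p = 0.00493) that was -0.72, -0.69 and -0.67 in the 3 mice. No member was called in CA2 dendrites (limma, 1.06% of all genes, 11 members at an unadjusted p below 0.05) or in the DG molecular layer (4.6%, 13 members).

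Among cell bodies, Rps4l was the only member called in DG, and it was lower, as were 16.8% of all genes. It lay at -2.93, -3.57 and -3.70 in DG granule cell bodies and at group means of -1.84 in CA1, -1.75 in CA2 and -2.26 in CA3, a difference of -1.45 ± 0.32 (adjusted p = 0.00174). The values of all 3 DG libraries lay below those of all 9 others. No member was called in the cell bodies of CA1, CA2 or CA3 (limma, 5.97%, 7.8% and 6.62% of all genes), where 2, 7 and 2 members had an unadjusted p below 0.05.

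Coherence of the family. Over the 24 libraries, the deposited level of a core gene correlated with the median of the other core genes at a median r of 0.90, from 0.16 to 0.98. The libraries share mice and scaling, so this is a description. Of the 77 core genes, 57 reached an r of at least 0.8 and 5 stayed below 0.5: Rps14 (0.16), Rpl10 (0.23), Rpl27 (0.30), Rps12 (0.45) and Rpl7 (0.48), which are named because of these values. For Rps14, a small-subunit protein near the mRNA channel, the deposited levels in CA2 dendrites were 7.10, 10.10 and 10.39 in mice 492, 496 and 502, so 1 library stood far below the others of its group.

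The departures of the core genes, Rps12 left out, correlated across 76 genes with an r of 0.71 between mice 492 and 496, 0.62 between 492 and 502, and 0.83 between 496 and 502. The 3 mice share the scaling and the family median, and genes are not independent replicates. Between subregions, over the 66 core genes with at least 90% of their reads unshared with a copy, r lay between 0.65 for CA2 with DG and 0.82 for CA3 with DG. Over the 76 core genes without Rps12 the subregion pairs lay between 0.53 and 0.79. With Rps12 included, over all 77, r fell to -0.13 for CA1 with CA2, -0.07 for CA2 with CA3 and 0.09 for CA2 with DG. It rose to 0.86 for CA1 with CA3, 0.83 for CA1 with DG and 0.80 for CA3 with DG. This single gene, whose reads were divided with a copy, thus changed the result in both directions.

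Coding length. Shorter core genes tended to lie higher in dendritic layers. The departure had a Spearman's rho of -0.36 with coding length over the 77 core genes and of -0.38 over the 66 with at least 90% own reads. Of the 26 shortest coding sequences (78 to 408 bases), 11 departed higher and 2 lower, with a median of 0.13. Of the 26 longest (579 to 1260 bases), 5 departed higher and 12 lower, with a median of -0.22. The 25 between them had 5 higher and 6 lower. Among all genes tested, of any length, 11.4% departed higher and 48.2% lower. Outside the family only genes with a mean of at least log2(100) were used, a limit not set for the core genes. Among them rho was 0.14 over 11336 genes and 0.07 over the 4718 whose coding length lay within the range of the core genes. With GC content, rho was 0.11 in the core genes and 0.14 in the others. Library input also differed between the compartments, and its part in the relation with length was not tested.

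**Figure D4:**
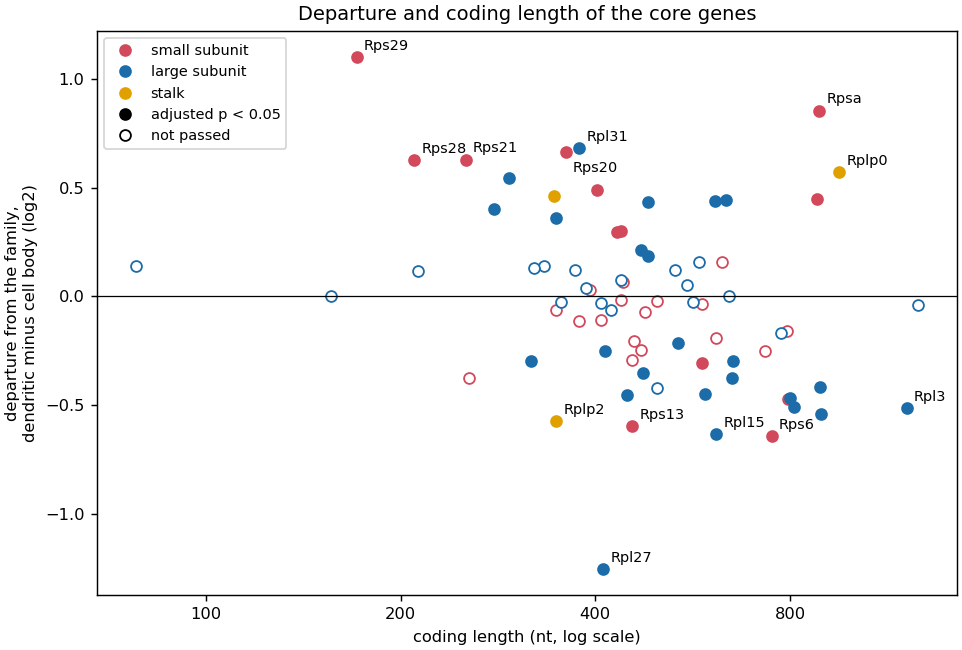
Departure between dendritic and cell body layers (log2) against coding length (bases) for 76 core genes, Rps12 left out. Genes with the shortest coding sequences mostly lie above 0 (median 0.13 in the 26 shortest, Rps12 counted) and those with the longest mostly below (median -0.22 in the 26 longest).

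Members with near-identical copies. Most ribosomal protein genes have retrotransposed copies, and 73 of the 77 core genes had at least 1 annotated transcript elsewhere with 95% identity over 80% of the coding sequence, 473 in all. In this report the reads of a gene or copy stand for its unlogged deposited normalized estimate, since counted reads were not available. For 11 core genes less than 90% of the summed estimates of the gene and its copies belonged to the gene itself (median over libraries). They were Rpl5, Rpl10, Rpl12, Rpl27, Rpl27a, Rpl31, Rpl35, Rps12, Rps16, Rps23 and Rps27, and the values of these genes are uncertain. Rps12 was the extreme, with a median own share of 0%. Its copy Rps12-ps3, identical over the coding sequence, held a mean level of 11.52.

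The deposited level of Rps12 itself ran from 0 to 6.84 in cell bodies, and in dendrites the values of mice 492, 496 and 502 were 0.92, 10.40 and 8.58 for CA1, 0.68, 0 and 0 for CA2, 0.61, 7.23 and 8.20 for CA3, and 0, 8.64 and 0 for DG. Rps12 was thus below 1 in 7 dendritic libraries and above 7 in the other 5. Its departure of 2.37 ± 0.99 (adjusted p = 0.0434) was -0.47, 4.08 and 3.51 in the 3 mice. This p-value is no evidence of a rise, since Rps12 passed the filter mostly through dendritic libraries. With the reads of its copies added, Rps12 ran from 10.48 to 11.46 in cell bodies (median 10.73) and from 11.64 to 13.98 in dendrites (median 12.08), without overlap, and departed by 0.79 ± 0.11 (adjusted p = 1.6e-06).

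With copies added, Rpl27 departed by -0.59 ± 0.13 (adjusted p = 0.000331) in place of -1.26 ± 0.26 (adjusted p = 0.000187). The difference of Rpl10 in CA1 dendrites became -0.47 (adjusted p = 0.0483) in place of -1.54. Rps23 lost its call (0.19, adjusted p = 0.13), and Rpl31 kept it at 0.59. Over the 77 core genes, 20 then departed higher, 21 lower and 36 did not pass, against 11.4% and 48.6% of all genes higher and lower. Of these, 20, 20 and 35 were the same genes as with own reads.

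**Figure D5:**
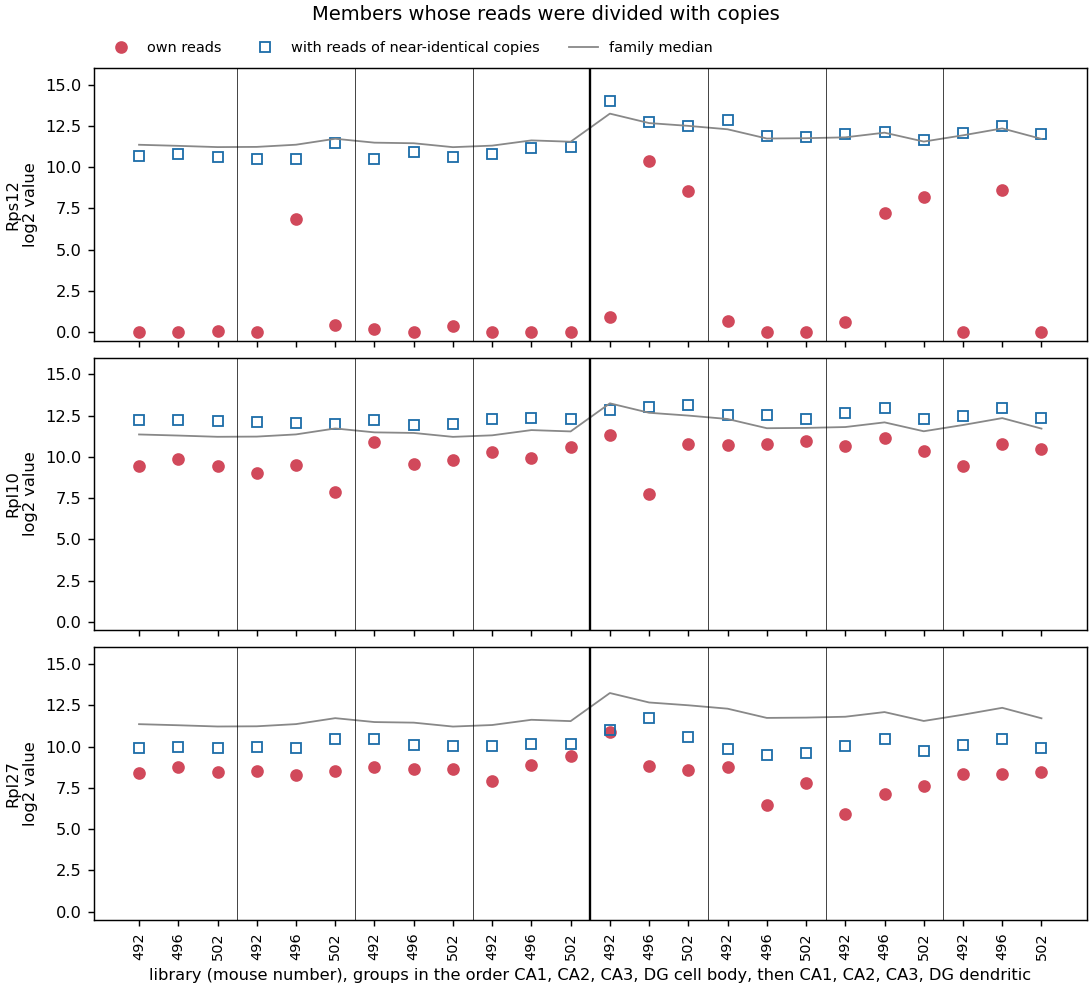
Deposited log2 level of Rps12, Rpl10 and Rpl27 in each library from the gene's own reads and with the reads of near-identical copies added, with the family median as a line. Own reads of Rps12 are at or near 0 in most libraries, while with copies its level lies between 10.48 and 13.98.

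Transcripts. The transcript table held 44 members with at least 2 tested transcripts, 122 transcripts in all, and for 11 of these members the transcripts changed unequally between compartments (limma's diffSplice, adjusted p below 0.05), against 20.5% of 10025 genes. The smallest p belonged to Rpl36a (adjusted p = 9.46e-05). A transcript annotated with a retained intron took 7.47% to 19.2% of its level in cell bodies (median 15.0%) and 0% to 8.71% in dendrites (median 4.06%), and the coding transcript took the rest. Rps25 (adjusted p = 0.000579), Rps16 (0.00126), Rpl41 (0.00188) and Rps4l (0.00378) followed. Rps24, known for alternative splicing of its last exons, did not pass (adjusted p = 0.869).

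Genes related to the family. Fau, which encodes a ribosomal protein fused to a ubiquitin-like protein, and Rack1, a small-subunit scaffold, were higher on the deposited scale by 0.60 and 0.92. Their departures of -0.14 ± 0.09 and 0.18 ± 0.13 did not pass the test (limma, adjusted p = 0.187 and 0.242). Of 17 other genes with oligopyrimidine starts, 3 departed higher, 10 lower and 4 did not pass, with a median of -0.40, against 11.4% higher and 48.2% lower among all genes. The elongation factor Eef2 departed by 1.19 ± 0.11 (adjusted p = 2.18e-09), the initiation factor subunit Eif3f by 0.49 ± 0.11 (adjusted p = 0.000501) and the poly(A)-binding protein Pabpc1 by 0.45 ± 0.08 (adjusted p = 2.21e-05), whereas another initiation factor subunit, Eif3e, departed by -1.57 ± 0.12 (adjusted p = 4.89e-11) and the nucleolar protein Npm1 by -1.32 ± 0.09 (adjusted p = 5e-12). Of 35 ribosome biogenesis genes, which include the RNA polymerase I genes Polr1a and Polr1b, 34 departed lower, against 48.2% of all genes lower. Their median was -1.55, and only Polr1b did not pass (-0.16, limma, adjusted p = 0.643). On the deposited scale 31 of the 35 were lower, 0 higher and 4 not passed, with a median of -0.82, against 25.4% of all genes lower, and the nucleolar protein Ncl was lower by -0.52 ± 0.13 (adjusted p = 0.00182).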

How the data were processed

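RNA from 24 laser-captured layers (3 mice, 8 groups) was sequenced in read pairs of 100 bp after 16 PCR cycles, per the labels' protocols, and the 8 libraries of a mouse were processed together. Per the submitters' processing notes, the tools were Salmon 0.9.1, STAR 2.5.1b, featureCounts 1.5.1, DESeq2 1.18.1, limma 3.32.2 in R 3.4.2, cutadapt and FastQC, with the mm10 build. Which of them made which value was not stated there. The authors deposited log2 values of normalized gene and transcript estimates, with a floor of 0. They are not counts, and the depth of each library is unknown. Per the labels' protocols, 4 of the 24 libraries were remade. Another 4 dendritic libraries of CA2 and DG, titled as repeats of mice 492 and 502, have no column and were not analysed here. For 2 of these 4 the title and the animal label disagree, and which library the CA2 and DG dendritic columns of these mice hold is not stated, which bears on their mouse block and per-mouse values. Also unused were 12 array columns of a separate table that match no library.

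Genes at 10 or more normalized units in 3 libraries (24911) were fitted with limma 3.58.1 (statmod 1.5.0, R 4.3.3) on the log2 values, with 8 groups and the mouse as a block, trended robust empirical Bayes and 14 residual degrees of freedom. P-values were adjusted by Benjamini-Hochberg over all genes tested, with a threshold of 0.05. Errors of differences are SEs of this fit. The family-centred fit first subtracted the median of the 77 core genes from each library. Transcripts were tested with diffSplice. The fits were tested on simulated data. The mouse number is the animal in the labels, so the block was kept. Residuals of libraries of 1 mouse correlated at a median r of 0.02 (-0.05 to 0.14, 84 pairs), and of different mice at -0.01 (168 pairs).

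Copies were found with BLAST 2.17.0+ against GENCODE M21 transcripts, and 47110 of 49341 gene names matched that annotation. Tables and figures used Python 3.11.15, pandas 2.3.3, Biopython 1.88 and matplotlib 3.10.9. Named members were Rpsa, Rplp0, Rplp1, Rplp2, Rps6, Rps24, the paralogs with their partners, and, among members called with 1 direction in all 3 mice, the 8 largest compartment differences each way, the 4 largest each way for each subregion, the 8 smallest p of each F test and the 5 smallest p for transcripts. Some genes that these rules or lists name are not reported here. Other names were added after their values were seen. The members and lists were chosen with earlier results of these data known. Alternatives were other low-value filters, quantile normalization, equal totals, the mean as centre, plain empirical Bayes, no block, and libraries or mice left out. Adding the reads of copies, and leaving out the CA1 dendritic libraries of mice 492 and 496, were chosen after the data were seen.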

Additional observations from a re-analysis of the deposited data

Results flagged for a closer look

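On the deposited scale, 22 members had a difference between dendritic and cell body layers that itself differed between the 4 subregions (interaction term, limma, adjusted p below 0.05, against 11.7% of all genes). On the family-centred scale 0 members passed this test, with 4 at an unadjusted p below 0.05. Groups held 3 libraries each, so single outlying libraries within a group were not tested for.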

How the results depend on the processing

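Under equal totals the median member difference in DG turned from 0.43 to -0.22. Departures that did not pass changed sign in 5 named members: Rps27 with copies added (-0.38 to 0.12), Rpl3l (0.46, and -0.145 to 0.646 with 1 mouse or the 4 libraries that have a repeat left out), and the values near 0 of Rpl10 (-0.160 with quantile normalization, -0.0167 with the mean as centre, -0.237 with copies added and -0.375 to 0.239 with 1 mouse or those 4 libraries left out), Rpl22 (-0.0304 with quantile normalization, -0.0756 to 0.113 with 1 mouse or those 4 libraries left out) and Rpl39 (-0.0094 to 0.0489 with 1 mouse or those 4 libraries left out). Rpl12 also turned with copies added (-0.42 to 0.12). No called value of a named member changed sign, and the cause of each change was not tested. Without the mouse as a block, the pairing of libraries by animal changed no count by more than 1.5 times: 70 members were called over the mean of the subregions, 72 for CA1, 25 for CA2, 14 for CA3 and 19 for DG, and 47 departures. With no filter on low values, members called in CA2 went from 28 to 15, departures of CA1 dendrites from 6 to 11 and the family-centred interaction from 0 to 1. A filter at 100 gave 2 departures in CA3 dendrites and 3 in DG cell bodies, in place of 1 each. Quantile normalization gave 68 members in CA2, 36 in CA3 (in place of 15), 30 in DG (in place of 19) and 2 departures in DG cell bodies, and equal totals gave 43 members in CA1 in place of 73. Plain empirical Bayes gave 16 members in CA2, 3 departures in CA1 dendrites and 23 over 8 groups in place of 35. Leaving out the 4 dendritic libraries that have a repeat gave 3 members in CA2, 0 departures in CA1 dendrites, 2 in DG cell bodies and 7 members with unequal transcripts in place of 11. Leaving out the CA1 dendritic libraries of mice 492 and 496 gave 0 departures in CA1 dendrites. With 1 mouse left out at a time, members called were 12 to 20 in CA2, 5 to 12 in CA3 and 12 to 15 in DG, departures were 2 to 3 in CA1 dendrites, 0 to 1 in CA2 cell bodies, 0 to 1 in CA3 dendrites, 0 to 1 in DG cell bodies and 13 to 27 over 8 groups, and members with unequal transcripts were 6 to 7. Of single genes recomputed under an alternative, 359 values kept their direction and their side of the threshold, 10 that passed on neither side changed sign, 24 lost their call and 2 gained one.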

Other observations

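The 3 members with the largest range of family-centred group means were compared with genes outside the family over the 8 group means, as a description. Rps4l was most like Pdcd5, Polr1d and Tm2d1 (Pearson's r of 0.99 each), Rpl3l most like Kdm1b (0.95), AW822252 (0.93) and Nt5dc1 (0.89), and Rps12 was close to Ccdc18 (0.84) and Arhgap11a (0.84).

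Of the members with unequal transcripts, 1 coding transcript of Rpl28, a large-subunit gene, took a median of 19.1% of the gene's level in cell bodies and 5.93% in dendrites. A processed transcript of Rpl24 took a median of 3.70% and 0.351%.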
